A study of Rattus norvegicus with 15 samples.

Results

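Described here are 34 genes of glycolysis and of the response to low oxygen, out of 34357 genes with an identifier in the table of expression values. They are a list of gene names, put together with earlier results of these data known, and each was found on 1 row. Of the 34, 26 encode enzymes, regulators and transporters of glycolysis and 8 belong to the oxygen response. Total RNA had been sequenced from kidney cortex and mesenteric artery of the Dahl salt-sensitive (SS) rat, an inbred strain that becomes hypertensive when fed much salt. Animals were wild-type or carried a deletion of a noncoding interval of 30.4 kb on rn7 (chr2:60825801-60856216), which corresponds to the human region in linkage with rs1173771. The arteries comprised 4 libraries of each genotype, and the kidneys 4 with the deletion and 3 without, all labelled male. Their age, diet, zygosity and the number of deletion lines are not given in the sources used here. The labels tie no library to a particular animal and no artery to a kidney, so that the spread behind every error and p-value is one between libraries and may in part be technical. Pklr (chr2:174543008-174551863) is the only one of the 34 on the chromosome of the interval.

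Glycolysis splits glucose into pyruvate in the cytosol and yields ATP without oxygen. Most of its steps can be run by several isozymes, encoded by separate genes and used to different extents in each organ. Kidney cortex is rich in proximal tubules, which burn fatty acids and make glucose by running most of the same steps backwards, whereas arterial smooth muscle is known to produce much lactate even in ample oxygen. When oxygen falls, the hydroxylases that mark hypoxia-inducible factor (HIF) for destruction slow down, and HIF then raises many glycolytic genes together with genes such as Vegfa, Bnip3 and Egln3.

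Levels are in FPKM, the authors' fragments scaled to gene length and to the mapped fragments of the library, which allow levels of different genes to be set side by side. Values per library are given in the order of the replicate numbers. Per library, FPKM summed to 285679 to 433477 in arteries and to 376270 to 459847 in kidneys, and the read depth is unknown. Of that sum the 34 genes held 0.332% to 0.557% in arteries and 0.557% to 0.808% in kidneys. Haemoglobin genes took 28.2% of the sum in wild-type artery 4, and Rn7sl1, a small cytoplasmic RNA, took 22.0% in deletion kidney 2. Markers matched the labelled tissues. The actin gene of smooth muscle, Acta2, averaged 796 ± 234 FPKM in artery (SD, n = 8) against 11 ± 4.04 in kidney (SD, n = 7), and the proximal tubule's phosphate transporter gene Slc34a1 0.343 ± 0.378 against 1039 ± 111. Adipocyte transcripts were also abundant in the arteries. The 20 adipocyte markers summed to between 3378 and 8633 FPKM in arteries and between 139 and 218 in kidneys, where Adrb3 was listed at 0 in every library. In the kidney labelled wild-type 3 and male, Xist stood at 81.1 FPKM against at most 1.30 in the others, which goes against its label. For each fit with kidneys some counts of members are therefore also given without it, and all other counts keep it.

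The first comparison asks how the 34 genes are used in each tissue. Most of them, like most of all genes tested, were measured at different levels in artery and kidney cortex, in both directions. Of the 34 genes, 31 differed between the tissues, 14 being higher in artery and 17 lower, against 77.4% of the 17842 genes tested (42.4% higher and 35% lower). These calls rest on an adjusted p under 0.05 in a limma fit on log2(FPKM + 0.5) in which genotype was a term, and log2 fold changes between the tissues are artery minus kidney on that scale. The regulators Pfkfb1, Pfkfb3 and Pdk1, the isozymes Aldoc, Eno2 and Hk2, and the HIF subunit gene Epas1 were at least 2-fold higher in artery. Pklr, Eno1, Pgk1, Ldhb, Gapdh, Tpi1, Pgam1, Slc2a1 and the oxygen response genes Ankrd37 and Ndrg1 were at least 2-fold lower. This made 7 genes past a log2 fold change of 1 and 10 past -1, against 20.7% and 17.2% of all genes. In 9 members the arteries lay wholly above the kidneys and in 11 wholly below, against 25.7% and 24.2% of all genes. By each of these rules the count of members higher in artery was near the share over all genes. The count of members lower in artery was above it. In bulk tissue a lower share of a cell type and less RNA per cell cannot be told apart.

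**Figure D1:**
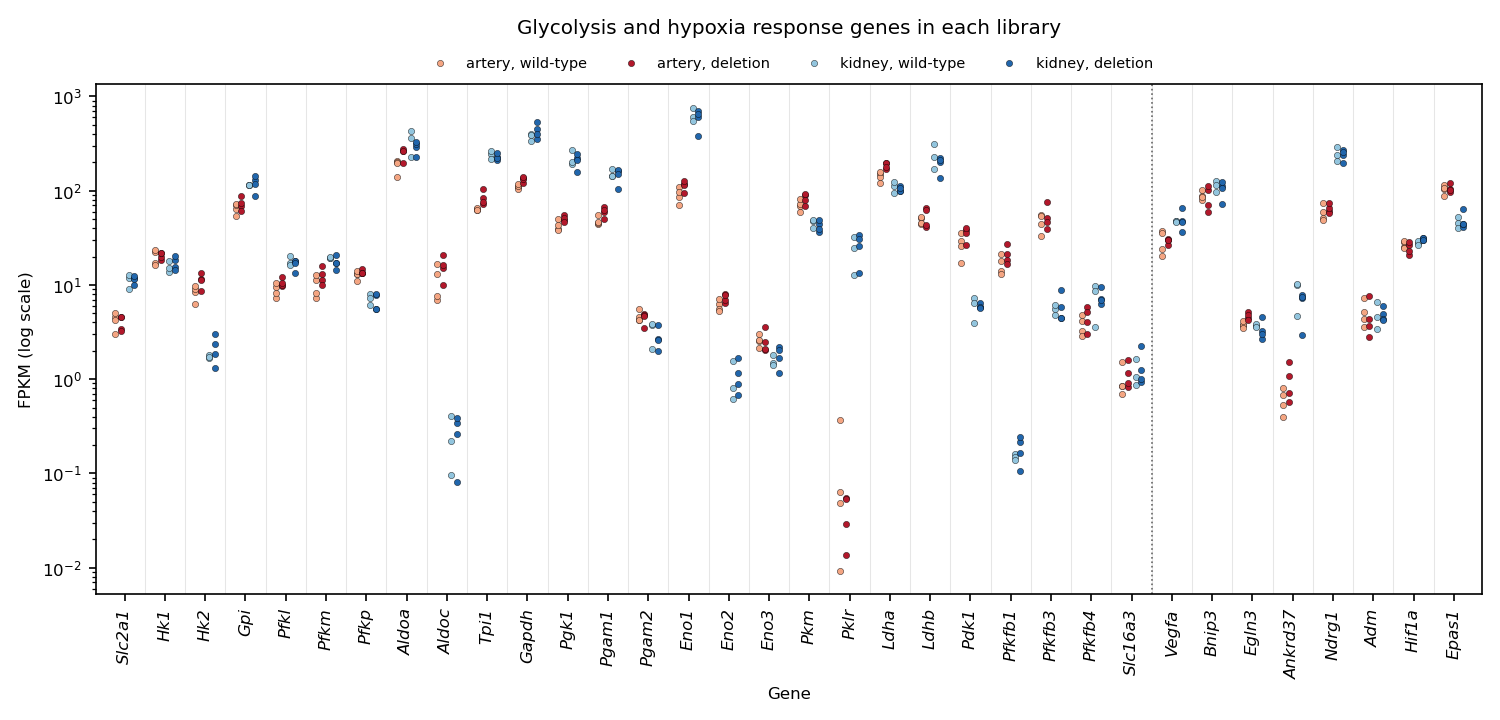
FPKM (log scale) of the 34 genes in each of the 15 libraries, 1 point per library, coloured by tissue and genotype. The dotted line separates the 26 glycolysis genes from the 8 oxygen response genes. Pfkfb1 and Aldoc lie far higher in artery and Pklr far higher in kidney, while the points of both genotypes mostly overlap within a tissue.

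Glucose enters cells through facilitated transporters and is then trapped by hexokinase. Slc2a1, which encodes the widely expressed transporter GLUT1, averaged 4.07 ± 0.729 FPKM in the 8 arteries and 11.3 ± 1.4 in the 7 kidneys (± is the SD throughout), a log2 fold change of -1.38 (SE 0.117). Hk1, the broadly expressed hexokinase, differed little, at 20.1 ± 2.59 in artery and 16.4 ± 2.48 in kidney, with a log2 fold change of 0.30. Hk2, the insulin- and HIF-responsive hexokinase of muscle and fat, stood at 9.79 ± 2.2 FPKM in artery and 1.96 ± 0.54 in kidney. The wild-type arteries held 8.5, 6.31, 9.05 and 9.69, and the kidneys held 1.69, 1.82 and 1.71 (wild-type) and 2.34, 2.98, 1.33 and 1.83 (deletion). No kidney reached the level of any artery, and the fold of FPKM + 0.5 was 4.22.

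Gpi, which turns glucose 6-phosphate into fructose 6-phosphate, was lower in artery at 69.2 ± 10.5 against 117 ± 16.9 FPKM. The phosphofructokinase step, the main point of control, was spread over its liver, muscle and platelet subunits. Pfkl averaged 9.68 ± 1.44 in artery and 17 ± 2.09 in kidney, and Pfkm 11.2 ± 2.77 and 18.3 ± 2.18, both higher in kidney. Pfkp ran the other way, at 13.3 ± 1.06 in artery and 6.89 ± 1.12 in kidney. The PFKFB enzymes make and degrade the sugar bisphosphate that activates phosphofructokinase, and their members differed widely between the tissues.

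Pfkfb3, the form with the strongest kinase activity, stood at 54.9, 54.2, 33.1 and 44.8 FPKM in wild-type arteries and 38.7, 75.9, 51.1 and 46.9 in deletion arteries, against 5.53, 4.74 and 6.07 in wild-type and 5.79, 8.81, 4.46 and 4.48 in deletion kidneys. Pfkfb1, known from liver and muscle, stood at 21.2, 18, 14.1 and 13.2 in the wild-type and 21, 26.8, 18.2 and 16.5 in the deletion arteries, against 0.16, 0.149 and 0.14 in wild-type and 0.164, 0.215, 0.107 and 0.245 in deletion kidneys. The lowest artery lay above the highest kidney for both genes. Their log2 fold changes were 3.02 (SE 0.168) and 4.81 (SE 0.125, adjusted p = 1.39e-14). Pfkfb4 was the exception among these members, at 4.14 ± 1.06 in artery and 7.36 ± 2.16 in kidney, and its call was lost when the values were rescaled without haemoglobin and Rn7sl1 (adjusted p = 0.102, range 0.000314 to 0.102 over the 3 scalings).

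Aldolase cleaves the sugar bisphosphate into triose phosphates. Aldoa, the muscle form, averaged 218 ± 46.2 FPKM in artery and 309.7 ± 71.4 in kidney, a log2 fold change of -0.52 whose call was lost under 2 of the 3 scalings (adjusted p = 0.889 with quantile normalization and 0.249 after rescaling). Aldoc, the form of brain and fat, stood at 6.88, 13, 7.69 and 16.8 in wild-type arteries and 20.6, 9.88, 15 and 16.4 in deletion arteries but at 0.219, 0.404 and 0.0959 in wild-type and 0.264, 0.34, 0.0815 and 0.387 in deletion kidneys. All 8 arteries lay above all 7 kidneys, with a log2 fold change of 4.13 (SE 0.202).

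The enzymes from triose phosphate to phosphoenolpyruvate serve both glycolysis and glucose synthesis, and their main forms were all higher in kidney. Tpi1 averaged 73.9 ± 14.6 FPKM in artery and 232 ± 18.3 in kidney, Gapdh 122 ± 13.3 and 407 ± 65.2, and Pgk1, which makes the first ATP, 46.5 ± 5.87 and 215 ± 35.8. Pgam1 stood at 53.5 ± 8.32 and 148 ± 21.3, and Eno1 at 102 ± 18.5 and 607 ± 123. For each of these 5 genes the kidneys lay wholly above the arteries, and the fold of FPKM + 0.5 in favour of kidney ran from 2.75 (Pgam1) to 5.95 (Eno1). The second isozymes went the other way. Pgam2, the muscle mutase, averaged 4.57 ± 0.613 in artery and 2.94 ± 0.809 in kidney. Eno2, the neuronal enolase, averaged 6.67 ± 0.968 and 1.06 ± 0.422, with no overlap and a log2 fold change of 2.25. Eno3, the muscle enolase, averaged 2.56 ± 0.534 and 1.68 ± 0.368.

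Pyruvate kinase closes the pathway. Pkm averaged 76.4 ± 11.1 FPKM in artery and 43.5 ± 4.86 in kidney. Pklr, the liver and red cell gene, stood at 32.1, 24.4 and 12.9 in wild-type kidneys and 33.7, 13.4, 30.8 and 26 in deletion kidneys, and at 0.367, 0.063, 0.00931 and 0.049 in wild-type arteries and 0.0543, 0.0541, 0.0136 and 0.0294 in deletion arteries. It was the gene of the set with the lowest artery level, and its log2 fold change was -5.36 (SE 0.215). Ldha, whose subunit favours lactate formation, was higher in artery at 164 ± 27.2 against 107 ± 10.2. Ldhb, whose subunit favours lactate use, was higher in kidney at 211 ± 54 against 50.6 ± 8.85, with no overlap. Pdk1, a pyruvate dehydrogenase kinase, stood at 35.6, 16.9, 29.4 and 25.7 in wild-type arteries and 37.8, 36, 40.3 and 26.8 in deletion arteries. All lay above the 7.23, 6.36 and 3.92 of wild-type and 5.78, 6.47, 5.82 and 5.69 of deletion kidneys. Slc16a3, the lactate exporter MCT4, was low in both tissues at 1.06 ± 0.346 and 1.28 ± 0.49 and was not called (log2 fold change -0.17, 95% confidence interval -0.55 to 0.21).

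Of the 8 oxygen response genes 2 were called higher in artery and 4 lower, with a median log2 fold change of -0.25. Epas1, which encodes the HIF alpha subunit typical of endothelium, averaged 104 ± 9.89 FPKM in artery and 47.5 ± 8.41 in kidney, with a log2 fold change of 1.14. Hif1a averaged 25.7 ± 2.87 and 29.6 ± 1.8. Ankrd37, a HIF target of little known function, stood at 0.786 ± 0.357 in artery and 7.23 ± 2.64 in kidney, and Ndrg1, a stress-response gene, at 61.3 ± 8.87 and 243 ± 32.1. No artery reached the lowest kidney for either gene. Vegfa, the endothelial growth factor, averaged 29.2 ± 5.77 and 48.1 ± 8.36, and Egln3, a HIF hydroxylase that is itself a HIF target, 4.22 ± 0.564 and 3.49 ± 0.61. Bnip3, a mitophagy receptor, at 87.2 ± 17.6 and 108 ± 18.6, and Adm, the vasodilator adrenomedullin, at 4.86 ± 1.73 and 4.88 ± 1.09, were not called.

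The 17 genes past a log2 fold change of 1 in either direction kept their call under all alternatives run, and their adjusted p ran from 1.39e-14 to 8.44e-08 in the fit as planned. Without the kidney labelled wild-type 3, 13 members were called higher and 17 lower. Smaller differences depended on scaling. Leaving out haemoglobin and Rn7sl1 moved the median of all genes from 0.13 to 0.44 and the members called to 14 higher and 13 lower, median-of-ratios scaling gave 12 and 18, and quantile normalization 12 and 16. Hif1a, lower in artery by 0.19 on the log2 scale as deposited, turned to 0.15 after that rescaling and 0.05 with quantile normalization, and the calls of Egln3, Eno3, Hk1 and Vegfa were lost under at least 1 of the 3 scalings.

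Isozyme shares do not depend on the scaling of a library, since each gene is set against the summed FPKM of its family in the same library. Of 41 shares in 13 families, 35 differed between artery and kidney (exact two-sided permutation test over libraries, adjusted over the 41, smallest p possible 0.000155 with 6435 arrangements). Families include isozymes outside the 34 genes so that they add up. The shares of a family are therefore tied to each other and are not separate results. Ldha and Ldhb, for example, have the same p with opposite sign of the difference. No such count exists for all genes, of which 77.4% differed in level between the tissues.

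Ldha made up 76.2% ± 4.14 (SD, n = 8) of lactate dehydrogenase in artery and 34.5% ± 6.11 (SD, n = 7) in kidney, so the more abundant subunit gene was Ldha in artery and Ldhb in kidney. In the kidney labelled wild-type 3, Ldha held 23.3%, the lowest of the 15 libraries.

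Pklr held only 0.112% ± 0.173 of pyruvate kinase in artery, and Pkm the rest. In kidney Pklr held 40.5, 37.5 and 20.9% in the wild-type libraries and 43.4, 21.6, 45.6 and 40.1% in the deletion libraries. The lowest shares were in wild-type kidney 3 and deletion kidney 2, so each genotype held 1 low library. Hk2 held 32.3% ± 6 of hexokinase in artery and 10.2% ± 1.69 in kidney, and Pfkp 39.2% ± 3.64 and 16.3% ± 2.09 of phosphofructokinase.

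Among the PFKFB genes, Pfkfb3 and Pfkfb1 held 62.4% ± 5.21 and 23.4% ± 2.53 of the family in artery, and 23.4% ± 4.57 and 0.695% ± 0.187 in kidney. In kidney Pfkfb2, the heart and kidney form, held 46.1% ± 4.92 against 8.83% ± 2.15 in artery, and Pfkfb4 29.9% ± 6.41 against 5.46, 5.03, 5.73 and 4.35% in the wild-type and 7.84, 3.55, 3.89 and 6.76% in the deletion arteries. Of the pyruvate dehydrogenase kinases, Pdk1 held 38.9% ± 6.16 in artery and 3.81% ± 0.873 in kidney, where Pdk2 held 85.6% ± 1.43. Pdk4, induced by fasting and fatty acids, held 28.9% ± 8.6 in artery and 1.58% ± 0.496 in kidney.

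Epas1 was the larger HIF alpha transcript in both tissues, at 79.9% ± 2.24 in artery and 61.1% ± 3.51 in kidney, with Hif1a at 19.8% ± 2.2 and 38.6% ± 3.51. Egln3 was the smallest of the 3 HIF hydroxylase genes, at 13.6% ± 1.94 and 10.1% ± 1.54. Of 4 facilitated glucose transporter genes Slc2a1 was not the main one in either tissue, at 10.4% ± 3.38 in artery behind Slc2a4, the insulin-responsive transporter, at 65.5% ± 7.89. In kidney Slc2a1 held 25.2% ± 5.81 behind Slc2a2, the transporter of the proximal tubule, at 71.5% ± 6.9. Slc16a3 was the smallest of the 3 monocarboxylate transporter genes at 4.16% ± 1.75 and 2.75% ± 0.811, a difference that was not called (exact permutation test, adjusted p = 0.0835).

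**Figure D2:**
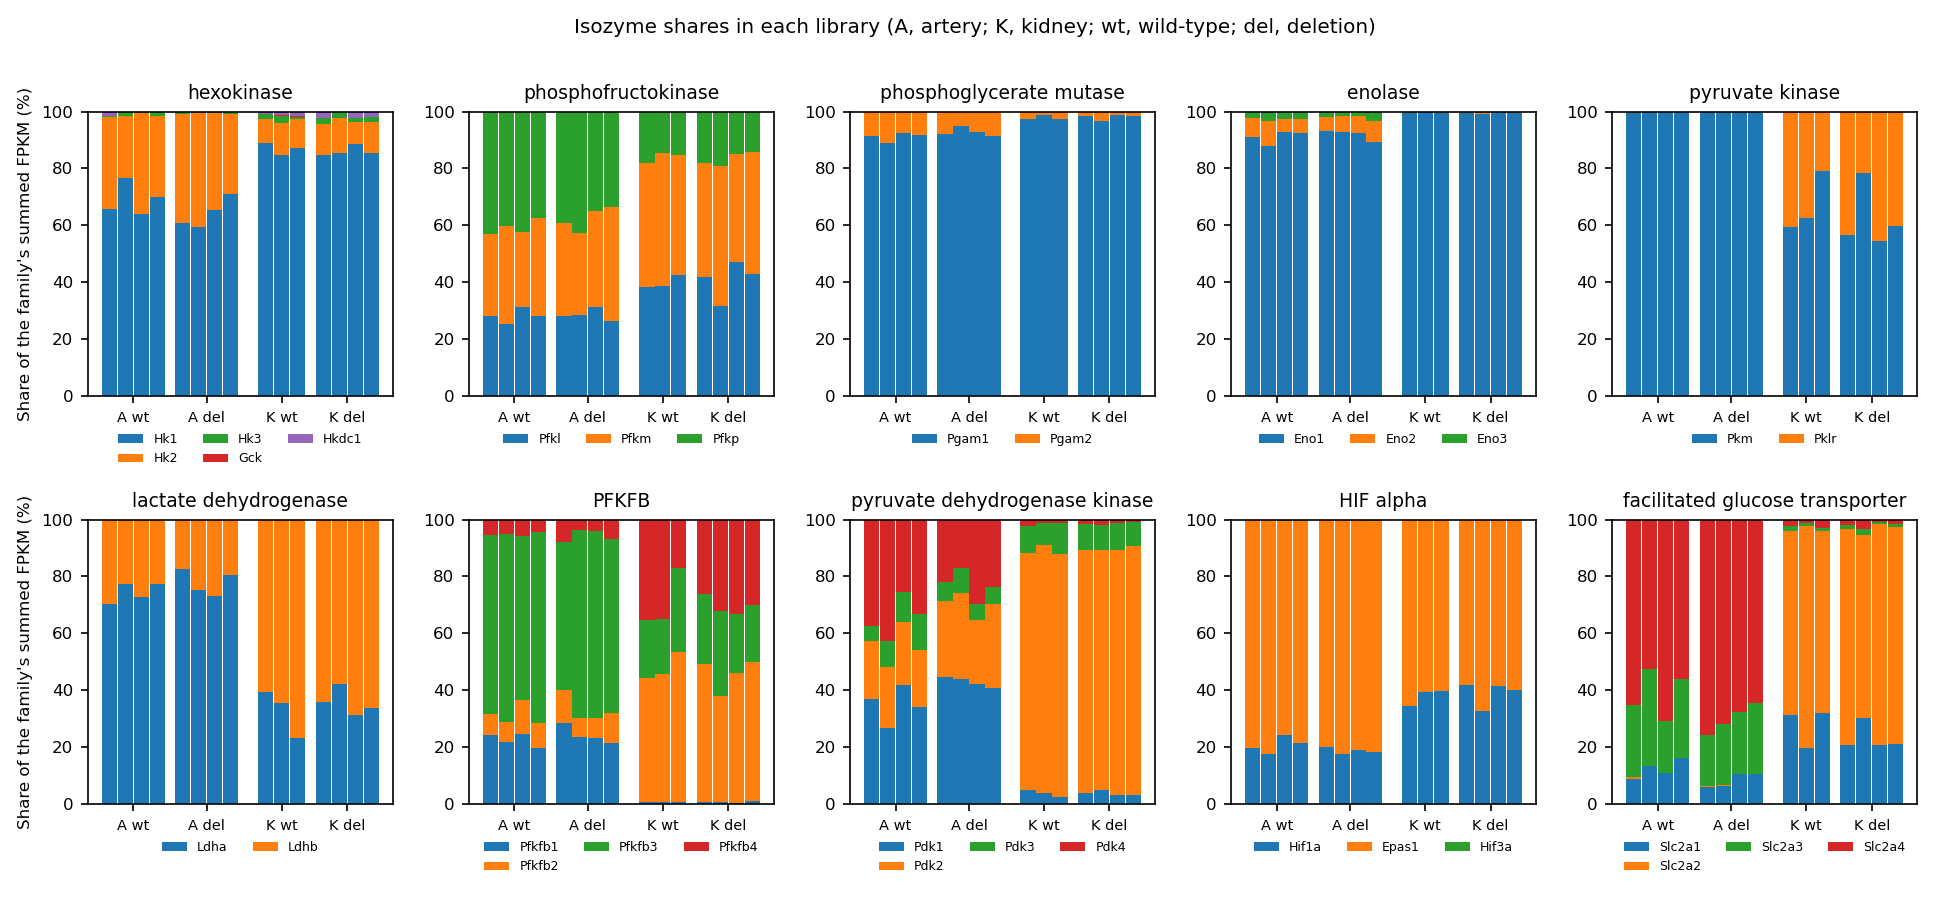
Share (%) of each gene in the summed FPKM of its family, 1 stacked bar per library, for 10 of the 13 families. Artery bars (left of each panel) and kidney bars (right) differ in their main colour for lactate dehydrogenase, PFKFB, the pyruvate dehydrogenase kinases and the facilitated glucose transporters. On average they also differ for phosphofructokinase (Pfkp in artery, Pfkm in kidney). Bars of both genotypes are broadly alike within a tissue, apart from the pyruvate dehydrogenase kinases in artery. There the Pdk2 shares of the genotypes do not overlap, and the mean shares of Pdk1 and Pdk4 differ by more, with overlap.

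Adipocyte markers moved with the artery side of this comparison, with all 20 higher in artery and a median log2 fold change of 5.31. Smooth muscle markers did so too, 10 of 10, with a median of 5.17, and 10 of 10 proximal tubule markers were lower, with a median of -8.93. The part of each cell type in the isozyme shares was not tested.

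The second comparison asks whether loss of the interval was accompanied by a change of these genes in mesenteric artery. None of the 33 members tested passed an adjusted p under 0.05 (Pklr, with a mean under 0.5 FPKM, was not tested), and none of the 16470 genes did (0% called). Most members nevertheless had the higher mean in deletion arteries. Of the 33, 27 had a higher mean log2 level in deletion arteries and 6 a lower one, against 59.7% higher among all genes, and their median log2 fold change was 0.23 against 0.04. The 25 glycolytic members had 22 higher and a median of 0.24, and the 8 oxygen response genes had 5 higher and a median of 0.04. Before adjustment, 7 members had p under 0.05, all higher, against 5.24% of all genes (3.72% higher and 1.52% lower). In 4 the deletion arteries lay wholly above the wild-type arteries, against 2.3% of all genes, and in none wholly below, against 0.953%.

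Ldha, which encodes the lactate-forming dehydrogenase subunit (chr1:97371823-97381247 on rn7), stood at 121, 150.3, 139.8 and 157 FPKM in wild-type arteries and at 196, 198, 169 and 178 in deletion arteries. The lowest deletion artery lay above the highest wild-type artery. The log2 fold change was 0.39 (SE 0.127, 95% confidence interval 0.10 to 0.67, unadjusted p = 0.0126, adjusted p = 0.893), the smallest p of the set.

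Tpi1, the triose phosphate isomerase (chr4:157615283-157618813), stood at 64, 62.9, 65.3 and 62.5 FPKM in wild-type arteries and at 72.3, 105, 82.6 and 76.3 in deletion arteries. The wild-type values were tight and lay below all 4 deletion values, of which deletion artery 2 was the highest. Its log2 fold change was 0.38 (SE 0.128, unadjusted p = 0.0139). Gapdh, the next enzyme (chr4:157962312-157967158), stood at 109, 104, 112 and 118 in the wild-type and 136, 122, 134 and 139 in the deletion arteries. Here too the groups did not overlap, with a smaller log2 fold change of 0.26 (SE 0.104, unadjusted p = 0.0327).

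Egln3 was the only oxygen response gene whose groups did not overlap (chr6:71650297-71675766), at 3.73, 3.75, 4.18 and 3.5 FPKM in wild-type arteries and 5.16, 4.44, 4.77 and 4.19 in deletion arteries. The margin was narrow, since the highest wild-type and the lowest deletion artery differed by 0.01 FPKM as printed here. Its log2 fold change was 0.26 (SE 0.114, unadjusted p = 0.0471).

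Hk2 stood at 8.5, 6.31, 9.05 and 9.69 FPKM in wild-type arteries and 11.6, 13.3, 11.3 and 8.61 in deletion arteries, and deletion artery 4 lay inside the wild-type range. Its log2 fold change was 0.40 (SE 0.161, unadjusted p = 0.0345). Aldoa stood at 206, 139, 203 and 198 in the wild-type and 264, 275, 264 and 194 in the deletion arteries, with deletion artery 4 again inside the wild-type range and wild-type artery 2 lowest. Its log2 fold change was 0.42 (SE 0.175, unadjusted p = 0.0381). Pgam1, the main mutase, stood at 44.4, 45, 55.1 and 46.9 in the wild-type and 59.2, 66.3, 61.9 and 49.4 in the deletion arteries, so that wild-type artery 3 and deletion artery 4 crossed. Its log2 fold change was 0.30 (SE 0.122, unadjusted p = 0.0336). Aldoc had the largest fold change of the set but a wide spread, at 6.88, 13, 7.69 and 16.8 in the wild-type and 20.6, 9.88, 15 and 16.4 in the deletion arteries. Its groups overlapped broadly, and the log2 fold change was 0.50 (SE 0.297, unadjusted p = 0.122).

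The other 25 members had unadjusted p above 0.05 and log2 fold changes from -0.18 (Adm) to 0.41 (Pdk1). Pgk1 came nearest to the unadjusted threshold, with a log2 fold change of 0.24 and an unadjusted p = 0.0527 in limma. The 6 members with a lower mean were Slc2a1, Pgam2, Eno3, Bnip3, Adm and Hif1a, and Hif1a had a log2 fold change of -0.13 (95% confidence interval -0.39 to 0.12). Among the oxygen response genes Epas1, Vegfa and Bnip3 lay closest to 0, at 0.03, 0.05 and -0.08.

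**Figure D3:**
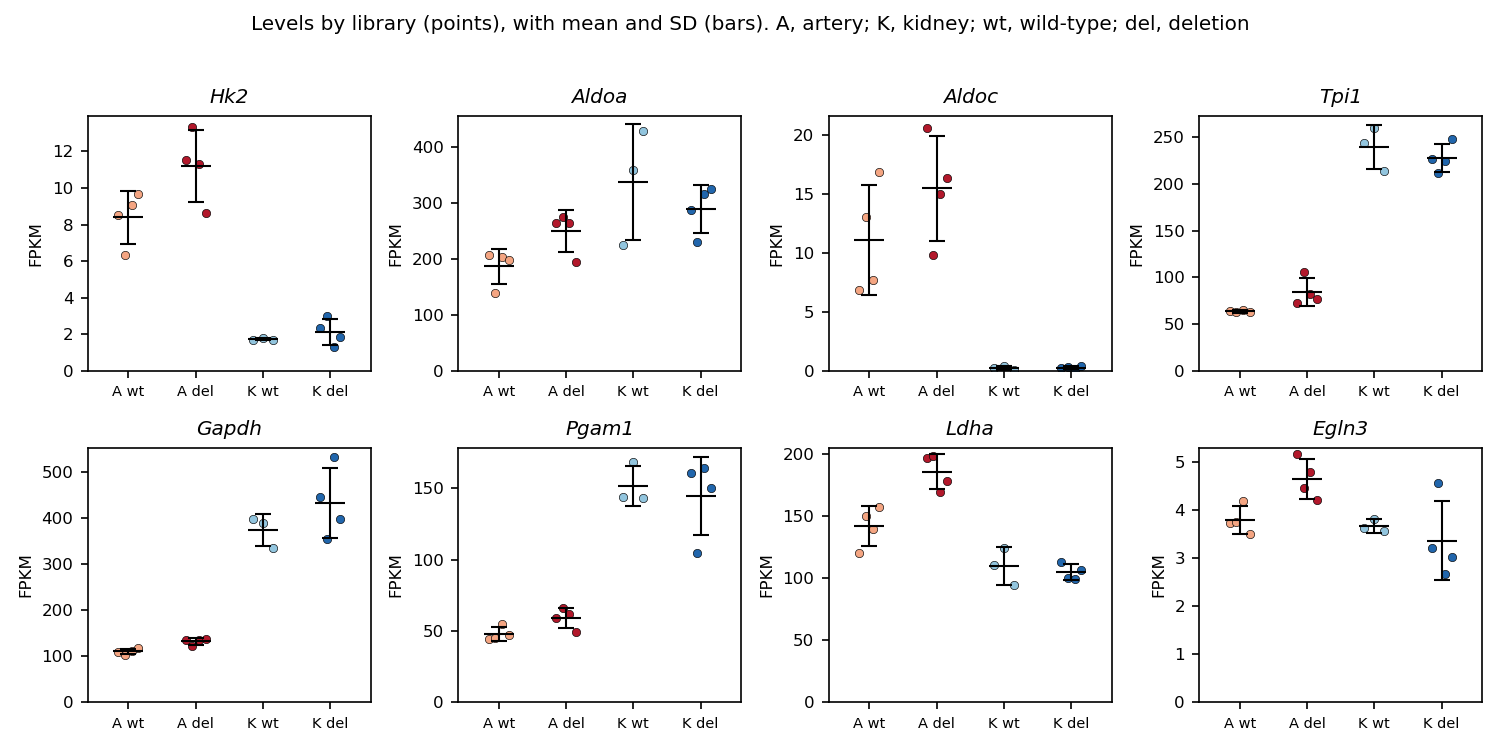
FPKM of the 8 members named for the artery comparison, 1 point per library with the group mean and SD as bars, in artery (A) and kidney (K), wild-type (wt) and deletion (del). Deletion arteries lie above all wild-type arteries for Tpi1, Gapdh, Ldha and Egln3, while the kidney groups overlap.

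Marker lists of other cell types also had unequal means in these artery groups, with no marker past an adjusted p under 0.05. All 20 adipocyte markers had a higher mean in deletion arteries (median log2 fold change 0.31, summed FPKM 3378 to 7523 in wild-type and 5304 to 8633 in deletion). All 9 nerve and Schwann cell markers tested did as well (median 0.31), and their sums did not overlap, at 303 to 445 and 469 to 536. All 10 smooth muscle markers were higher by a median of 0.13, and all 15 erythrocyte markers lower by a median of -0.84, with sums of 4183 to 123741 and 4349 to 38125. All 11 T and NK cell markers tested were lower by a median of -0.52, and 11 of 12 macrophage markers were lower, with a median of -0.25 over the list. All 5 intestinal epithelium markers tested were lower (median -0.73), with 35.7 FPKM in wild-type artery 1 and at most 3.99 in any other artery. Endothelial markers were higher in 6 of 10 (median 0.07) and B cell markers in 3 of 9 (median -0.14). None of the adipocyte markers was at 0 in either artery group, and Hbe2 was listed at 0 in all deletion arteries. With the mean log2 level of the adipocyte markers as a covariate, the median of the members was 0.17, with 26 of 33 higher. In that fit the log2 fold change was 0.13 for Aldoa, 0.13 for Hk2, 0.17 for Pgam1, 0.21 for Tpi1 and 1.09 for Aldoc, while it was 0.47 for Ldha, 0.31 for Gapdh and 0.24 for Egln3. With that of the nerve and Schwann cell markers, a choice made after seeing the data, it was 0.22, with 23 of 33 higher, and the log2 fold change of Aldoc became -0.11. With the erythrocyte markers it was 0.22, with 27 of 33 higher. With the T and NK cell markers, also added after seeing the data, it was 0.23, with 27 of 33 higher. With the adipocyte markers 4 members had an unadjusted p under 0.05 (1148 of 16470 genes), and with the erythrocyte markers 6 (694 of 16470). With the nerve and Schwann cell markers 7 had (994 of 16470), and with the T and NK cell markers 9 (1065 of 16470). Over these covariate fits 56.6% to 59.4% of all genes were higher. The part of these cell types in the members' values was not tested beyond these fits.

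The 7 members past the unadjusted threshold became 2 of 33 without deletion artery 3 (1141 of 16494 genes). They became 3 without wild-type artery 2 (1039 of 16471) or deletion artery 1 (719 of 16455), and 4 without deletion artery 2 (677 of 16437). With median-of-ratios scaling they became 2 (756 of 16459), and with quantile normalization 4 (844 of 16470). Without deletion artery 3 and with median-of-ratios scaling, the members' count was near the share over all genes. Under median-of-ratios scaling 24 of 33 were higher, against 49.6% of all genes. The adjusted p of these 7 members ran from 0.639 to 0.974 over the alternatives, and reads from processed copies of genes such as Gapdh, Pgk1 and Ldha could have been counted to either, since the labels do not say how the authors treated such reads.

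The promoters of the members were read for the core letters of the element that HIF binds, ACGTG and GCGTG, on both strands. Sequences are the 250 bases before the annotated start, from RefSeq on the assembly GRCr8, which is not the build of the expression table. Of the 34 genes 32 had an entry, giving 37 promoters, and Pgk1 and Ndrg1 had none. Either motif occurred in 19 of the 37 promoters (51.4%), against 36.7% of all 33469 promoters of that length, and 2 or more matches in 29.7% against 16%. The members' promoters were also richer in G and C, with a median of 60.4% against 51.2%. A palindrome CACGTG holds ACGTG once on each strand and was counted as 2 matches.

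The 6 promoters that follow belong to the 4 genes whose artery groups did not overlap and to a pair of HIF targets, Ankrd37, higher in kidney, and Bnip3, abundant in both tissues. Each is written 5′ to 3′ on the gene's strand, in lower case with matches to either motif, or to its reverse complement, in capitals.
Ldha: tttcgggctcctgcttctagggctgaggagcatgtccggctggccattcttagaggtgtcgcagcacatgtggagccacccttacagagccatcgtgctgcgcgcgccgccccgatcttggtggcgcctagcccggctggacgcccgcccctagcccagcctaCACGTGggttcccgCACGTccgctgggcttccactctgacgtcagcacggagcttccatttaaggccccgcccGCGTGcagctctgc
Gapdh: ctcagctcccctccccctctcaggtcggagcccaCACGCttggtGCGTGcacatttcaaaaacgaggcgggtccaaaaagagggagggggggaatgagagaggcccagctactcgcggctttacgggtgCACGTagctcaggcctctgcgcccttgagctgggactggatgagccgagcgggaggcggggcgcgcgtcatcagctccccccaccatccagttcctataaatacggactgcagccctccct
Tpi1: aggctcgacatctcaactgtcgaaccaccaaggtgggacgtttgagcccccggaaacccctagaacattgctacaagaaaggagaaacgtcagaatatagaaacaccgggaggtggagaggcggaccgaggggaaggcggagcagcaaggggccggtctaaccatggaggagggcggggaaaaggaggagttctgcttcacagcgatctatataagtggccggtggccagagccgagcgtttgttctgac
Egln3: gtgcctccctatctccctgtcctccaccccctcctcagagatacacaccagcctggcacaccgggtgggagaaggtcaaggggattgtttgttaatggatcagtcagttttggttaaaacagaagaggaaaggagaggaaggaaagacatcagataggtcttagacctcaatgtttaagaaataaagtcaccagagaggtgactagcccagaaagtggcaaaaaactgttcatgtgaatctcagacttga
Ankrd37: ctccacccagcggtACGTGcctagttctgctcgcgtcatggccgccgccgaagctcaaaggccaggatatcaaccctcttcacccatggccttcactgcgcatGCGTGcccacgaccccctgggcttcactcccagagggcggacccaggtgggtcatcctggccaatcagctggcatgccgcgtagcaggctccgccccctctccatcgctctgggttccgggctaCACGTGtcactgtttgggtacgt
Bnip3: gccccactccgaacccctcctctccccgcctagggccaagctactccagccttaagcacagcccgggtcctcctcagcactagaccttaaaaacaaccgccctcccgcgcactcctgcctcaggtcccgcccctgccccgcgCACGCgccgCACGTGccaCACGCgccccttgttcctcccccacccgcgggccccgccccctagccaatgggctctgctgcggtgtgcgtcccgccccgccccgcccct
On GRCr8 those of Ldha (chr1:106507842-106508091) and Ankrd37 (chr16:53001257-53001506) are on the plus strand. Those of Gapdh (chr4:159652468-159652717), Tpi1 (chr4:159305089-159305338), Egln3 (chr6:77411016-77411265) and Bnip3 (chr1:203154963-203155212) are on the minus strand.

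Ldha, Ankrd37 and Bnip3 each held 4 matches, a CACGTG among them, and Gapdh held 3. Tpi1 and Egln3 held none, which says only that these letters are not in this window. So of the 4 members whose deletion arteries lay wholly above the wild-type arteries, 2 carried the motifs and 2 did not. Ankrd37 and Bnip3, with 4 matches each, had log2 fold changes of 0.38 and -0.08 in artery and -0.36 and -0.13 in kidney, all with unadjusted p above 0.05. They do not stand for the other oxygen response genes, since Adm, Epas1 and both promoters of Vegfa held no match, like Egln3, and Hif1a held 3. A match to these letters is a description of the sequence, and binding was not measured.

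The third comparison asks the same of kidney cortex, where members lay as often below as above their wild-type mean. None of the 32 members tested passed an adjusted p under 0.05, nor did any of the 15444 genes (0% called), and Aldoc and Pfkfb1 had means too low to be tested. The mean was higher in deletion kidneys for 16 members and lower for 16, against 60.2% higher among all genes, and the median log2 fold change was -0.0022 against 0.04. No member had an unadjusted p under 0.05, against 1.41% of all genes, and log2 fold changes ran from -0.36 (Ankrd37) to 0.20 (Gapdh). The intervals were wide, for example -0.42 to 0.30 for Ldha and -0.78 to 0.48 for Eno1. For Ldha and Tpi1 (-0.47 to 0.33) they overlapped the artery intervals, which ran from 0.10 to 0.67 for both genes. Those of Gapdh and Hk2 also overlapped their artery intervals.

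Hif1a, which encodes the oxygen-regulated HIF subunit, was the only member whose kidney groups did not overlap, against 1.54% of all genes with higher and 1.01% with lower values in all deletion kidneys. It stood at 28.1, 29.4 and 26.4 FPKM in wild-type kidneys and 30.0, 31.4, 31.5 and 30.2 in deletion kidneys. All 4 deletion kidneys lay above the 3 wild-type kidneys by a small margin, with a log2 fold change of 0.14 (SE 0.108, unadjusted p = 0.238, adjusted p = 0.999). It was 0.05 with median-of-ratios scaling and with array weights. In artery its log2 fold change was -0.13.

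Deletion kidney 2 stood apart from its group. It held the lowest kidney level of Gpi, Eno1, Pgk1, Pgam1, Ldhb, Bnip3, Ankrd37 and Ndrg1, and the highest of Hk2, Vegfa, Pfkfb3, Egln3 and Epas1. Eno1 stood at 607, 376, 705 and 648 FPKM in the deletion kidneys, and Hk2 at 2.34, 2.98, 1.33 and 1.83, with the second value being that of deletion kidney 2. Its proximal tubule markers summed to 3924 FPKM, against 5811 to 7092 in the other kidneys, and its distal nephron markers to 1970, against 1379 to 1864. The part of these in the levels was not tested.

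Without the kidney labelled wild-type 3, whose Xist level goes against its label, 10 of 32 members were higher and the median was -0.06. Over all genes 50.5% were then higher, with a median of 0.0017. With median-of-ratios scaling 9 were higher and the median was -0.09, against 43.2% of all genes higher and a median of -0.03. With limma array weights 8 of 32 members had an unadjusted p under 0.05, against 4020 of 15444 genes, so the count is near the share over all genes. No member was called in that fit (smallest adjusted p = 0.0941, range 0.0941 to 1 over the alternatives), while 282 of all genes were.

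**Figure D4:**
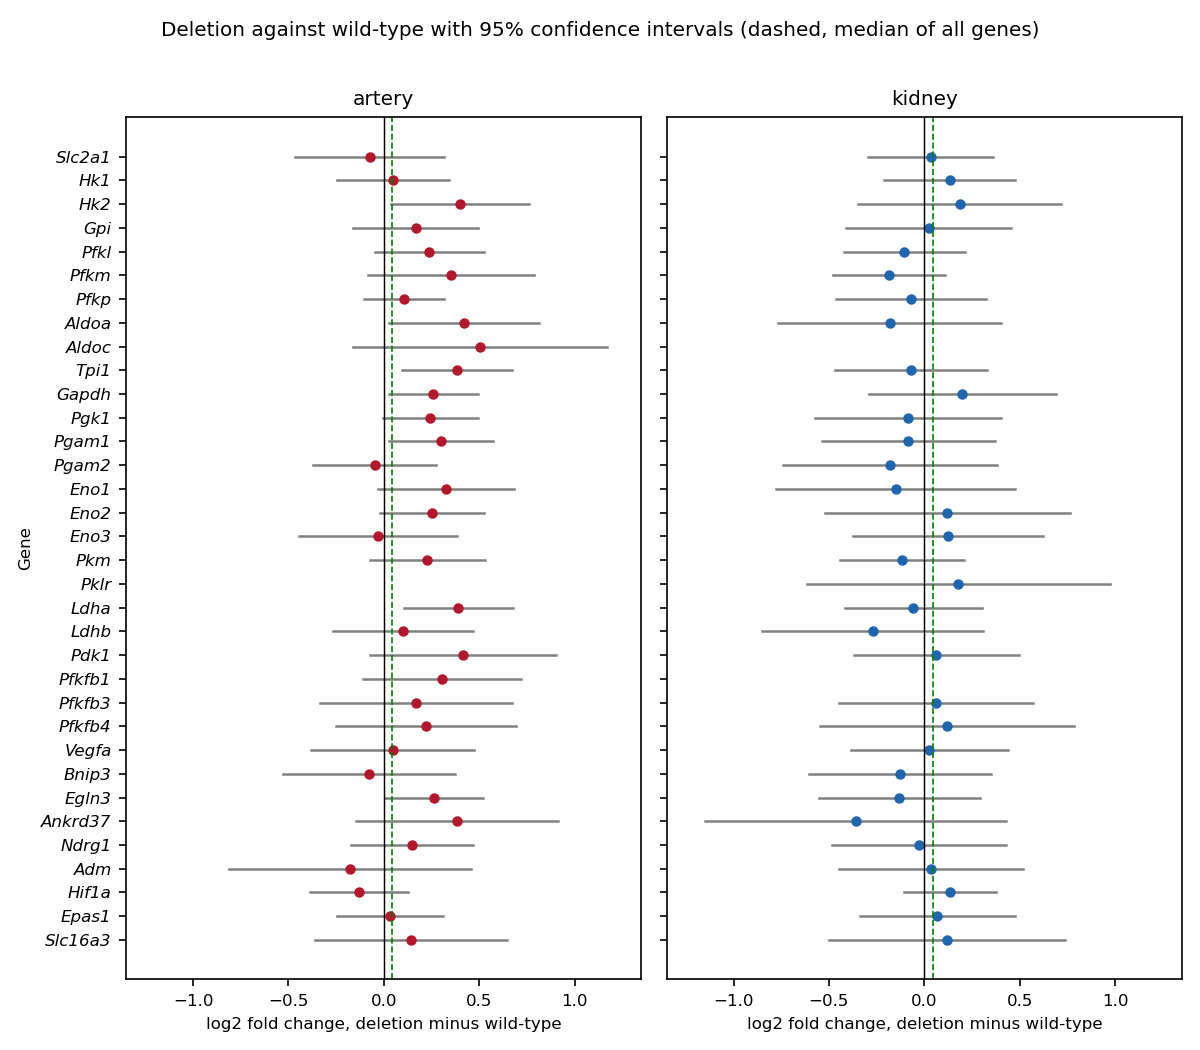
Log2 fold change of each member, deletion minus wild-type, with 95% confidence intervals from the limma fits, in artery (left) and kidney (right). The dashed line is the median of all genes, 0.04 in both tissues, and members below the filter on low values have no point. Most artery points lie right of that line, and the kidney points scatter around 0.

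Whether the deletion difference itself differed between the tissues was tested as an interaction over all 15 libraries. No member and no other gene was called (0% of 17842), and 3 members had an unadjusted p under 0.05, against 4.3% of all genes (2.45% in this direction), all with the larger value in artery. These were Tpi1 (0.45, SE 0.182, unadjusted p = 0.0246), Ldha (0.45, SE 0.18, unadjusted p = 0.0247) and Pfkm (0.54, SE 0.251, unadjusted p = 0.0493), each with an adjusted p of 0.947 in limma. The difference was above 0 for 27 of 34 members, against 49.2% of all genes, with a median of 0.18. The 3 members became 0 without wild-type kidney 2, 1 without wild-type artery 1 and 5 without either deletion kidney 2 or wild-type artery 4. With array weights they became 11 of 34, against 2561 of 17842 genes. Without the kidney labelled wild-type 3 the count was 2, with 29 of 34 above 0 (54.6% of all genes) and a median of 0.23. With quantile normalization the values of Tpi1 and Ldha were 0.25 and 0.29. So the artery and kidney responses are not shown to differ for any single member.

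None of the 41 isozyme shares was called between the genotypes in artery or in kidney, but the smallest p these group sizes allow, 0.0286 in the exact permutation test, would have to be reached by many shares at once to pass the adjustment. So these tests do not show that the shares were alike. In artery 1 share, that of Pdk2, had an unadjusted exact p under 0.05, at 20.4, 21.5, 22.1 and 20.1% in the wild-type and 26.7, 30.0, 22.4 and 29.4% in the deletion arteries. The groups did not overlap, p was 0.0286, the smallest that 4 against 4 allows in the exact permutation test, and the adjusted p was 0.635. In kidney none had, and the smallest exact p found was 0.2.

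Genes next to the 34 in the same pathways were read in the same fits, as lists grouped by function. In artery none was called. Of 17 genes of glycogen and pentose phosphate metabolism, 16 were higher in deletion arteries (59.7% of all genes were), the list's median was 0.23, and 7 had an unadjusted p under 0.05 (5.24% of all genes had). The smallest belonged to Pygb (0.31), a glycogen phosphorylase, Pgd (0.39), of the pentose phosphate pathway, and Pgm1 (0.34), a phosphoglucomutase. Of 15 genes of pyruvate and lactate fate, 12 were higher with a median of 0.13, led by the pyruvate carrier gene Mpc2 (0.37), the kinase gene Pdk2 (0.45) and Mpc1 (0.46).

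Slc2a4 was the member of the transport list with the smallest p, at 22, 17.8, 26.9 and 17.2 FPKM in wild-type arteries and 42.7, 36.5, 28.7 and 27.7 in deletion arteries. The groups did not overlap, the log2 fold change was 0.68 (SE 0.179, unadjusted p = 0.00376), and the gene is also on the adipocyte list. With Slc2a3 (0.21) and Slc2a5 (0.32) next, 5 of 6 transporters were higher. Of 5 genes of glucose synthesis 4 were higher, with Slc37a4 (0.67) and Pc (0.75) ahead of Pck1, the rate-limiting enzyme of glucose synthesis, at -0.62. Of 6 other glycolytic isozymes 4 were higher, among them Ldhd (0.40) and Pfkfb2 (0.24).

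Of 7 genes of the oxygen-sensing pathway 6 were higher, with a median of 0.11. Egln1 (0.30) and Arnt2 (0.43) had an unadjusted p under 0.05, and Egln2 (0.26) followed. Arnt2 was low in artery, at a mean of 0.863 FPKM. Of 26 other HIF targets only 9 were higher, with a median of -0.04, which lies below the 0.04 of all genes. Ppp1r3c, a glycogen-targeting subunit, was the only one with an unadjusted p under 0.05, at 0.32, ahead of Insig2 (0.29) and Ddit4 (-0.27).

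In kidney 60.2% of all genes were higher. In the same lists 4 of 16 were higher for glycogen and pentose phosphate, 2 of 15 for pyruvate and lactate and 6 of 8 for transport. The counts were 1 of 8 for glucose synthesis, 1 of 6 for other isozymes, 5 of 7 for oxygen sensing and 18 of 25 for other targets. None was called. Among the targets with the smallest p were Stc2 (-1.38) and Ak4 (-0.26). Stc2 had a kidney median of 0.567 FPKM and a highest value of 12.3, in a wild-type kidney, so its fold change rests largely on 1 library. Those of the transport list were Slc2a12 (0.27), Slc2a2 (0.37) and Slc5a1 (-0.33), those of glucose synthesis G6pc3 (0.27), Pck2 (-0.18) and Pck1 (-0.25), and those of pyruvate and lactate Mpc2 (-0.36), Pdha1 (-0.24) and Pdp2 (-0.11). In the other lists they included Pgm1 (-0.15) for glycogen and pentose phosphate, and Adpgk (-0.17), Bpgm (-0.06) and Pfkfb2 (-0.06) for isozymes. For oxygen sensing they were Egln2 (-0.12), Egln1 (0.11) and Siah2 (0.15).

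Between the tissues the counts of calls in the same lists stand against 77.4% of all genes, 42.4% higher in artery and 35% lower, and several of them are near that share. Of 8 genes of glucose synthesis 7 were lower in artery and none higher, with Fbp1 (-9.24), G6pc1 (-8.01) and Slc37a4 (-3.54) at the smallest p. Of 15 genes of pyruvate and lactate fate 12 were lower and 2 higher, Pdk2 (-2.81), Mpc2 (-2.45) and Pdp2 (-2.40) leading. Of 26 other HIF targets, by contrast, 17 were higher in artery and 7 lower. Among them Car12 (-8.06), a carbonic anhydrase, and Ak4 (-6.54), an adenylate kinase, were lower, and Ppp1r3c (3.13) was higher. Of 8 transporters 5 were lower (Slc5a2 -7.29, Slc2a2 -5.84) and 2 higher (Slc2a3 3.31). Of 6 other isozymes 3 were lower, among them Ldhd (-3.70) and Pfkfb2 (-0.68), and 2 were higher. Of 17 glycogen and pentose phosphate genes 7 were higher, among them Gys2 (3.14) and Rpe (0.90), and 6 lower. Of 7 oxygen-sensing genes 4 were lower, with Arnt2 at -2.46 and Hif1an at -0.87, and Arnt was higher at 0.64.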

How the data were processed

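RNA-seq of total RNA from mesenteric artery and kidney cortex was available as 1 table of FPKM values for 15 libraries. The authors deposited FPKM, per the file headers. The submitters' processing notes name the build rn7, DESeq2 1.46.0, HISAT2 2.2.1 and Trim Galore 0.6.2 and give no roles. The tool that made the FPKM values, the annotation and the treatment of reads shared by near-identical copies are not given in the sources used here, and the read depth is unknown. The table also holds 1 column of per-library values that matched no labelled sample and was not used.

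Rows without a gene identifier (6337 of 40694) were left out. The members and all lists were chosen with earlier results of these data known. Log2 values were computed here from the deposited FPKM as log2(FPKM + 0.5), which understates changes of low genes. Genes with a mean under 0.5 FPKM in the libraries of a fit were not tested. limma 3.58.1 (R 4.3.3), with trended and robust moderation, was fitted to each genotype contrast within its tissue and to all libraries for the tissue contrast and the interaction. P-values were adjusted by Benjamini and Hochberg over all genes tested, with 0.05 as threshold. Isozyme shares were compared by exact two-sided permutation tests. The scripts were tested on simulated data.

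Members named in full for the tissue contrast had an adjusted p under 0.05 and a log2 fold change of at least 1 in size. Those named for a genotype contrast had an unadjusted p under 0.05, groups that did not overlap or a log2 fold change of at least 0.5. From other lists the 3 genes with the smallest p were named, apart from a few genes and 1 enzyme family's shares that are counted but not reported here. The labels give no batch. Plots used Python 3.11.15 with matplotlib 3.10.9.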

Additional observations from a re-analysis of the deposited data

Results flagged for a closer look

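Of 102 sets of 4 libraries examined (each member in each group of 4), 7 held a library far from the other 3, with a gap to the nearest, as a share of the whole range, above Dixon's 95% critical value. Chance alone gives this in about 1 in 20 sets. In artery, Aldoa stood at 139.4 FPKM in wild-type artery 2, against 198 to 205.9 in the other 3, and at 194.5 in deletion artery 4, against 263.6 to 274.9. In deletion artery 2, Pfkp stood at 14.86, against 13.28 to 13.44, and Pgam2 at 3.503, against 4.728 to 4.963. Pklr stood at 0.3672 in wild-type artery 1, against 0.009312 to 0.06296. That library also held intestinal epithelium markers at a sum of 35.7 FPKM, against 0.256 to 3.99 in the other arteries, and the part of this was not tested. In deletion kidney 2, Ankrd37 stood at 2.97, against 7.332 to 7.874, and Epas1 at 64.03, against 41.58 to 44.66. Without deletion artery 4, the library that lowers the group mean of Aldoa, 9 members rather than 7 had an unadjusted p under 0.05 in artery. Over all genes 807 of 16440 had.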

How the results depend on the processing

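No member was called in either genotype contrast or in the interaction under any alternative run. The median log2 fold change of the members in artery moved from 0.23 to 0.18 with median-of-ratios scaling and to 0.17 with adipocyte markers as a covariate, and lay between 0.17 and 0.23 when each library was left out in turn. In kidney it moved to -0.086 with median-of-ratios scaling, where that of all genes was -0.032. Between the tissues it was -0.41 with median-of-ratios scaling, -0.082 with quantile normalization, 0.048 after rescaling without haemoglobin and Rn7sl1 and -0.37 with array weights, and lay between -0.31 and -0.22 with each library left out. For the interaction that range was 0.15 to 0.24. With nerve and Schwann cell markers as a covariate, chosen after seeing the data, the artery log2 fold change of Aldoc turned to -0.11. In wild-type libraries alone the Egln3 share differed by 3.15 percentage points and was no longer called. Over all genes, 1 was called in artery with a pseudocount of 0.1, after rescaling, with T and NK cell markers as a covariate (added after seeing the data) and without wild-type artery 2 or deletion artery 3. In kidney 282 genes were called with array weights and 1 without wild-type kidney 1. The causes were not tested. Whether replicate numbers pair the samples could not be settled (correlations of same-numbered deviations from -0.342 to 0.321), the groups being too small to tell. With the replicate block, 0 members were called in either tissue, and 4 (artery) and 0 (kidney) had an unadjusted p under 0.05. Over all genes 843 of 16470 (artery) and 460 of 15459 (kidney) had. Wild-type arteries 1 and 4 and wild-type kidney 3 correlated best with the deletion library of the same number, and the others with another number. Depth is unknown, so no counting limit can be given for low genes such as Pklr in artery.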
